A study of Mus musculus with 6 samples.

Results

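The regions described here belong to collagens, laminins, integrins and the enzymes and inhibitors that build, crosslink or cut the extracellular matrix. They were chosen by gene symbol alone, as every deposited region with at least 3 cytosine positions whose RefSeq transcript belongs to a collagen alpha chain, laminin subunit, integrin subunit, fibrillin, fibulin, thrombospondin, lysyl oxidase, collagen prolyl or lysyl hydroxylase, ADAM, ADAMTS, matrix metalloproteinase or TIMP gene. The choice gave 85 regions of 85 genes among 10021 regions with at least 3 positions (10755 deposited), and 2232 of 268725 positions, or 0.831%. Of 88 genes with such a symbol, Col1a1, Col11a1 and Itgad had fewer than 3 positions and were left out. The members lay on all 19 autosomes and held 3 to 118 positions each, with a median of 18 against 19 over all regions.

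Methylation was measured by reduced representation bisulfite sequencing (RRBS), which reads unmethylated cytosines as T and methylated ones as C in DNA fragments cut by a restriction enzyme. The DNA came from the quadriceps muscle of C57BL/6 mice. The exercised group (3 samples) had trained on a treadmill for 4 weeks and the sedentary group (3 samples) served as controls, to ask which genes differ in methylation after training. DNA of the exercised group was taken 3 h after the last bout, and no such time applies to the sedentary group. The last bout and the 4 weeks of training therefore cannot be told apart here. Neither age, sex nor any genetic modification is given in the labels. Whether each sample was a different animal is not stated, and the p-values cover only the spread between the sequenced samples.

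Muscle fibres are enclosed by a basement membrane of type IV collagen, laminin and perlecan, which integrins and dystroglycan bind from the cell surface, and by an interstitial matrix of fibrillar collagens. Collagen chains are hydroxylated inside the cell, crosslinked outside it by lysyl oxidases, and cut by metalloproteinases that TIMP proteins inhibit. CpG islands at gene starts are often little methylated whether or not the gene is expressed, and DNA methylation does not by itself measure expression.

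The labels cite an RRBS protocol built on the enzyme MspI, whose recognition site is CCGG. This motif reads the same on both strands and holds a CpG, so it contributes 1 CpG cytosine per strand. RefSeq promoter sequences (GRCm38.p6, 250 bases before to 50 bases after the annotated start) matched 54 of the 85 genes, and the deposited positions of 19 genes could be laid on a promoter by the spacing of its CpGs. The 6 below are shown so that their measured cytosines before the start can be read against the letters. Cytosine counts per gene given further on also take in the 50 bases after the start, which are not printed. Each of the 6 sequences is the 250 bases before the start, 5′ to 3′ in the direction of the gene, with every CCGG in capitals. They are Col13a1 (chr10:61979109-61979358, minus strand), Col23a1 (chr11:51289670-51289919, plus strand), Itgav (chr2:83724147-83724396, plus strand), Plod1 (chr4:147936777-147937026, minus strand), Loxl4 (chr19:42612807-42613056, minus strand) and Adamts3 (chr5:89883335-89883584, minus strand), all in GRCm38.p6.
Col13a1: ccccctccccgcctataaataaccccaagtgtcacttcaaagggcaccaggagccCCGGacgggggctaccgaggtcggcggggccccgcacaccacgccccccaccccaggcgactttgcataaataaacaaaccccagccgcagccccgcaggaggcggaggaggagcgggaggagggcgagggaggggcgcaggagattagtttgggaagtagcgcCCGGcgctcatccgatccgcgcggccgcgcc
Col23a1: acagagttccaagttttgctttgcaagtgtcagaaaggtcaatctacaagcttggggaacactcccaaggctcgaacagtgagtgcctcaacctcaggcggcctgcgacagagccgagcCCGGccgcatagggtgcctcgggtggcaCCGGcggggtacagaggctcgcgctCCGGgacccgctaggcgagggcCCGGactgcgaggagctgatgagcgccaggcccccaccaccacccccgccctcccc
Itgav: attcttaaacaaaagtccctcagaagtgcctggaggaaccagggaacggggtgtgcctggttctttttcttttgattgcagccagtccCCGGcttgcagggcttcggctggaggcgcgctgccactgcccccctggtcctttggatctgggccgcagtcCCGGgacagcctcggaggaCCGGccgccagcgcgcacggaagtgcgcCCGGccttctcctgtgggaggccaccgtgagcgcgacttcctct
Plod1: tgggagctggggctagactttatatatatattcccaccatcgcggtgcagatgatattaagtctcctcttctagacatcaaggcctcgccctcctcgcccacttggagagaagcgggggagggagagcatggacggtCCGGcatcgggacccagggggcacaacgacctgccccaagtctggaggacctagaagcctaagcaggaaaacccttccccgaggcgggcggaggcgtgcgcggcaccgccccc
Loxl4: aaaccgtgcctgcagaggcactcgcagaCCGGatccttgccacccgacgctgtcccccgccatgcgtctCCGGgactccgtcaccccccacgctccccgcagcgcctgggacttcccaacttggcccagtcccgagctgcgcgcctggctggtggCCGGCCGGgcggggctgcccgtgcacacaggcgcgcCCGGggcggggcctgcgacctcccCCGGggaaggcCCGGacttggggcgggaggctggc
Adamts3: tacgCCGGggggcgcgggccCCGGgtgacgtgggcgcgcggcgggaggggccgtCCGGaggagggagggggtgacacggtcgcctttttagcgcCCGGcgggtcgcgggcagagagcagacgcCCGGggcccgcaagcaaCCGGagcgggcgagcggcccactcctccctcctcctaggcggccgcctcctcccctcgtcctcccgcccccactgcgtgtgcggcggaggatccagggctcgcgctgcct
In these 250 bases CCGG occurs 2 times in Col13a1, 4 times in Col23a1 and Itgav, 1 time in Plod1, 7 times in Loxl4 and 6 times in Adamts3. The motif was present in 80.6% of the 62 promoters that RefSeq lists for the members and in 47.1% of all 32851 promoters. The members' promoters also held more CpG dinucleotides, 16.8 on average against 9.86. Members were kept only with at least 3 positions read by this protocol, while the 32851 promoters include genes without any. That filter favours promoters with CCGG and CpG, so neither excess can be read as a trait of matrix genes.

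In the 19 placed promoters, methylation followed the motif. The 83 measured cytosines inside CCGG, in 18 genes, had a mean level of 64.5% over the 6 samples and a median of 78.0%, and 82 of them were at 10% or more. The 197 other CpG cytosines averaged 1.78%, none was above 10.5%, and 1 was at 10% or more. Coverage was alike, with a mean of 66.6 reads at the former and 62.2 at the latter. The same split was present outside the members, where 10567 cytosines in CCGG averaged 61.1% and 32753 others 4.05%, so it is not particular to matrix genes. With fewer matched positions required for a placement, a setting chosen after the data were seen, the members' values were 62.9% over 99 cytosines and 2.86% over 209. The cause of this split was not tested.

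**Figure D1:**
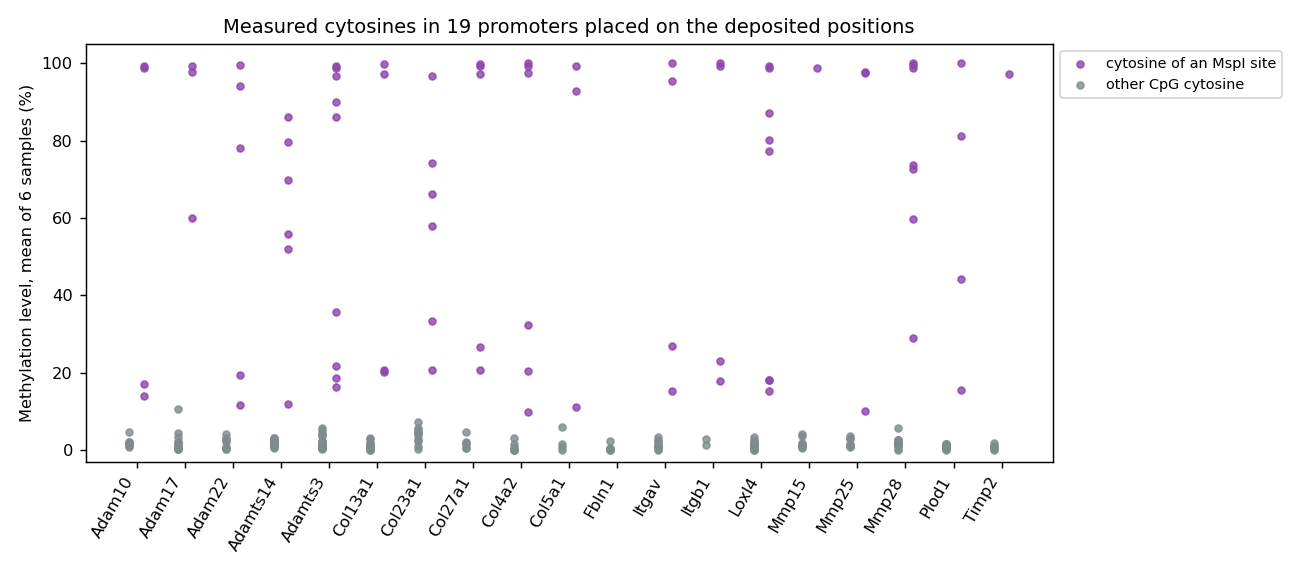
Methylation level (%, mean of 6 samples) of every measured CpG cytosine in the 19 promoters placed on the deposited positions, one column per gene, with each point 1 cytosine. Cytosines of MspI sites (purple) spread from 9.98% to 100%, and the other CpG cytosines (grey) lie at or under 10.5%.

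Adamts3 encodes a protease that removes the amino-terminal propeptide of procollagens. Its 9 cytosines in CCGG ranged from 16.4% to 99.4%, and its 22 other CpG cytosines stayed between 0.370% and 5.80%. In Loxl4, a lysyl oxidase family member, 8 cytosines in CCGG ranged from 15.4% to 99.2% beside 17 others of 0% to 3.33%. Within a single CCGG the opposite strands were often far apart. In Itgav, which encodes the integrin alpha v subunit, the cytosines 71 and 70 bases before the start were at 15.2% and 100%. In Col13a1, a transmembrane collagen, those 30 and 29 bases before the start were at 20.2% and 99.8%. In Col23a1, another transmembrane collagen, the pair 130 and 129 bases before the start was at 33.5% and 74.2%. Plod1, a lysyl hydroxylase of collagen, had 4 cytosines in CCGG that averaged 60.2% and 11 others that averaged 0.984%. Over the placed members, 32 strand pairs in CCGG had a median gap of 75.2 percentage points, while 83 pairs at other CpGs had a median gap of 0.893 and none above 5.12.

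The split was alike in both groups. Cytosines in CCGG averaged 64.5% ± 1.59 (SD, n = 3) in exercised and 64.4% ± 1.51 (SD, n = 3) in sedentary samples. The other CpG cytosines averaged 1.85% ± 0.524 and 1.71% ± 0.482 (SD, n = 3 each).

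Outside the placed promoters the motif could not be read, because no genome of the deposited build (mm9) was used here. A description without sequence was therefore added: a position is called stand-alone when its mean level is at least 10% while the other listed positions within 100 bp have a median under 10%. Of the 83 cytosines in CCGG, 74 were stand-alone, against 1 of the 197 others. Over all 2232 member positions, 574 were stand-alone, which is 76.4% of the 751 positions at 10% or more. Levels below are therefore given with stand-alone positions and, for some members, also without them. The p-values without them come from a separate edgeR fit over all regions and also change where nothing was removed. Loxl1 and Itga3 had no stand-alone position, yet their unadjusted p went from 0.0764 to 0.468 and from 0.121 to 0.457. A change in p between the 2 fits is therefore not a measure of the removed positions.

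Placement also showed how the regions lie on their genes. Of 1969 promoters placed in the whole table by search, 66.9% had their annotated start within 1 bp of 2000 bp into the 3000 bp region and 86.5% within 100 bp, and all 14 members placed by search lay within 100 bp. Distances from a start site below assume this frame, 2000 bp upstream and 1000 bp downstream. The regions of Mmp11 and Chchd10 overlapped by 891 bp, with no position listed for both, and no other member overlapped another region.

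The libraries held 9153526 to 18656340 calls, of which 74714 (sedentary sample 3) to 152849 (sedentary sample 2) fell in the members. Median coverage of a member position was 27 to 59 reads. A region's level is its methylated reads as a share of all its reads. The 95% Wilson interval of a member's level in 1 sample had a median half-width of 2.56 percentage points (0.741 to 12.04), for counting error only, since no molecular identifiers are named. The median SD between samples was 1.67 points in exercised and 1.95 in sedentary. Of the muscle marker genes 4 had a region, with levels from 1.11% to 72.3%. The endothelial, leukocyte, adipocyte and fibroblast lists had 4, 2, 2 and 3 regions. None of these or of the muscle regions had an unadjusted p under 0.05 by edgeR, beside 2.37% of all regions. So few regions cannot show that the groups were alike. Exercised minus sedentary was -8.03 and -3.50 points in the adipocyte regions. It ran from -5.50 to 1.97 in endothelial, -2.54 to 0.421 in leukocyte, -0.837 to 2.20 in fibroblast and -1.58 to 2.71 in muscle regions.

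Member regions had a median level of 22.7% over the 6 samples, near the 22.0% of all gene regions. They ranged from 9.48% in Col6a2, a chain of the type VI collagen around muscle fibres, to 49.3% in Mmp11, a metalloproteinase of the stromelysin type. The level was under 20% in 27 members, from 20% to under 30% in 33, from 30% to under 40% in 15 and at 40% or more in 10. Without stand-alone positions the median was 3.50% over 84 members against 2.50% over 9707 regions. It was then under 5% in 47 members, from 5% to under 10% in 6 and at 10% or more in 31. Within a region, low and fully methylated cytosines lay side by side: 65 members had a median position under 10%, and 83 had at least 1 position at 90% or more.

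The 10 highest members stayed high without stand-alone positions, all between 32.4% and 49.3%. They held 6 (Adamts16) to 15 (Adamts1) positions, fewer than the members' median of 18. Only 0 to 4 of these were stand-alone, so this setting left most of their positions in. Mmp11 (49.3%) and Col9a3 (46.4%), a cartilage collagen chain, had no stand-alone position. Integrin alpha 8 (Itga8) was at 42.7%, Loxl2 at 42.4%, and the fibrillar collagen gene Col24a1 at 42.3%. Adamts16 (41.4%), Itgb4 (41.2%, the partner of integrin alpha 6 in hemidesmosomes), Mmp9 (41.1%, gelatinase B), Itga5 (40.9%, the fibronectin receptor alpha chain) and Adamts1 (40.2%, an aggrecan-cutting protease) completed them. Several neighbours in this order differed by less than their SD between samples. Mmp9, for example, had an SD of 7.09 points over the exercised samples.

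By role, the lysyl oxidases had the highest median of the larger groups without stand-alone positions, 30.8% over 5 genes, from 1.34% in Loxl4 to 38.9% in Loxl2. Integrin alpha subunits followed with 14.4% over 9 genes. The 8 ADAM proteases (1.98%), 7 collagens outside the fibrillar, basement membrane and type VI classes (1.86%) and 5 collagen hydroxylases (2.24%) were lowest among groups of at least 5. Within the integrin alpha group the level without stand-alone positions ran from 1.52% in Itgav to 39.6% in Itga8. Lox, Loxl1 and Loxl3, with 9, 14 and 7 positions, had no stand-alone position, so nothing was removed from them. Loxl3 kept its level although 5 of its 7 positions were under 10%. Loxl4 had 8 stand-alone positions among 27. A stand-alone call needs other listed positions within 100 bp, and whether these group levels depend on the number of positions was not tested.

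**Figure D2:**
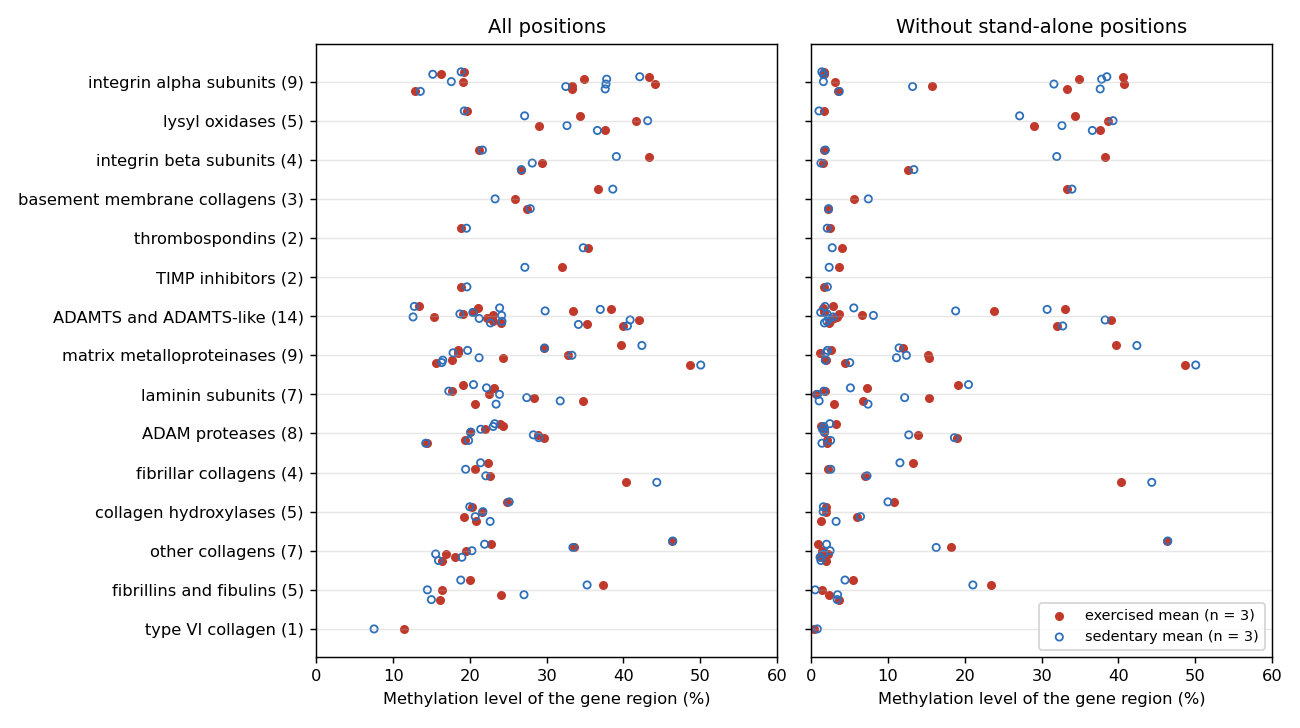
Mean methylation level (%) of each of the 85 member regions in exercised (filled, n = 3) and sedentary (open, n = 3) samples, by gene group with the number of members, for all positions (left) and without stand-alone positions (right, 84 members). Most members drop below 10% on the right, while some lysyl oxidases, integrins and Mmp11 stay above 30%.

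No member differed between exercised and sedentary muscle after adjustment over all regions. With the edgeR quasi-likelihood test, 0 of 10021 regions had an adjusted p under 0.05 (0% of regions), and the smallest adjusted p of a member was 0.9998. At an unadjusted p under 0.05 there were 237 regions (2.37%), 146 higher (1.46%) and 91 lower (0.908%) in exercised, and 1 member, 1.18% of 85. By limma there were 283 regions and the same 1 member. The members were higher in 50 cases and lower in 35, which is 58.8% higher beside 61.0% of all regions. Their median difference was 0.417 percentage points against 0.390 over all regions. Exercised and sedentary samples did not overlap in 3 members (3.53%), beside 7.25% of all regions. Exercised was higher in 1 of the 3 (4.91% of all regions) and lower in 2 (2.35%). The members' shares thus lay near or under those of the whole table.

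The mean over the 85 member regions was 27.2%, 26.1% and 24.7% in the exercised and 26.0%, 25.2% and 25.8% in the sedentary samples, each in the order 1, 2 and 3. Exercised sample 1 was the highest and exercised sample 3 the lowest, and the groups overlapped. The difference between the group means was 0.338 points, beside 0.329 over all gene regions. With each position weighted equally in place of by its reads it was -0.068 in the members (25.9% against 26.0%) and 0.174 over all gene regions. Without stand-alone positions the group means were 12.01% ± 0.787 and 11.6% ± 0.637 (SD, n = 3 each). The difference was under 2 percentage points in 66 members and at 4 points or more in 6. The median difference of 0.417 became -0.19 without exercised sample 1 and -0.0071 without sedentary sample 2, so its sign rested on single libraries.

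**Figure D3:**
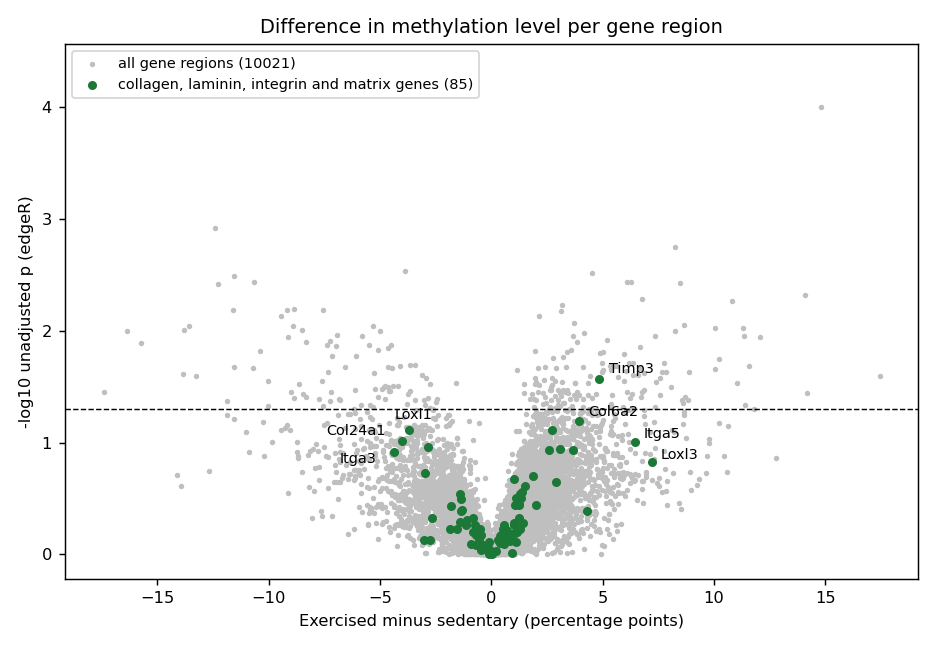
Difference in methylation level (exercised minus sedentary, percentage points) against -log10 of the unadjusted p of edgeR for 10021 gene regions (grey) and the 85 members (green), with a dashed line at the 0.05 threshold. Only Timp3 among the members lies above the line.

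Timp3, a matrix-bound inhibitor of metalloproteinases and ADAM proteases, was the 1 member with an unadjusted p under 0.05. Its region (chr10:85761157-85764156, mm9, plus strand) read 33.9%, 31.0% and 31.1% in the exercised and 29.0%, 26.3% and 26.1% in the sedentary samples. The 3 exercised samples were all above the 3 sedentary ones. The difference was 4.86 percentage points (32.0% ± 1.63 against 27.2% ± 1.63, SD, n = 3 each; edgeR unadjusted p = 0.0268, adjusted p = 0.9998). That p was 0.0847 without exercised sample 1, 0.0797 without sedentary sample 2 and 0.0658 without sedentary sample 3. Without its 4 stand-alone positions the difference was 1.23 points (unadjusted p = 0.486 in the separate edgeR fit). One of these 4, at 340 bp after the inferred start, reached the 10% that defines a stand-alone position through the exercised samples (25.4% on average, against 8.64% in sedentary samples), so leaving it out takes part of the group difference away by construction.

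One cytosine, picked because its group difference was the widest in the region, held much of the difference at Timp3. Without it the difference was 2.31 points (33.3% ± 0.676 against 31.0% ± 2.59, SD, n = 3 each). A smaller value follows from that choice. At 340 bp after the start, level was 39.1%, 15.2% and 21.9% in exercised, and 10.9%, 13.0% and 2.04% in sedentary samples, 16.7 points higher on average (unadjusted p = 0.0782). The cytosine beside it on the other strand was at 99.5%. A stand-alone position at 307 bp went the other way, with 95.8%, 94.3% and 96.4% in exercised and 100%, 99.1% and 100% in sedentary samples, 4.20 points lower (unadjusted p = 0.00703, adjusted p = 0.919 by edgeR over all positions). The fourth stand-alone cytosine, at 306 bp, averaged 25.5% in exercised and 25.3% in sedentary samples. The 6 positions that were not stand-alone were all under 5% on average. Timp2, which also inhibits metalloproteinases, had a difference of -0.71 points (18.9% ± 1.61 against 19.6% ± 1.46, SD, n = 3 each).

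**Figure D4:**
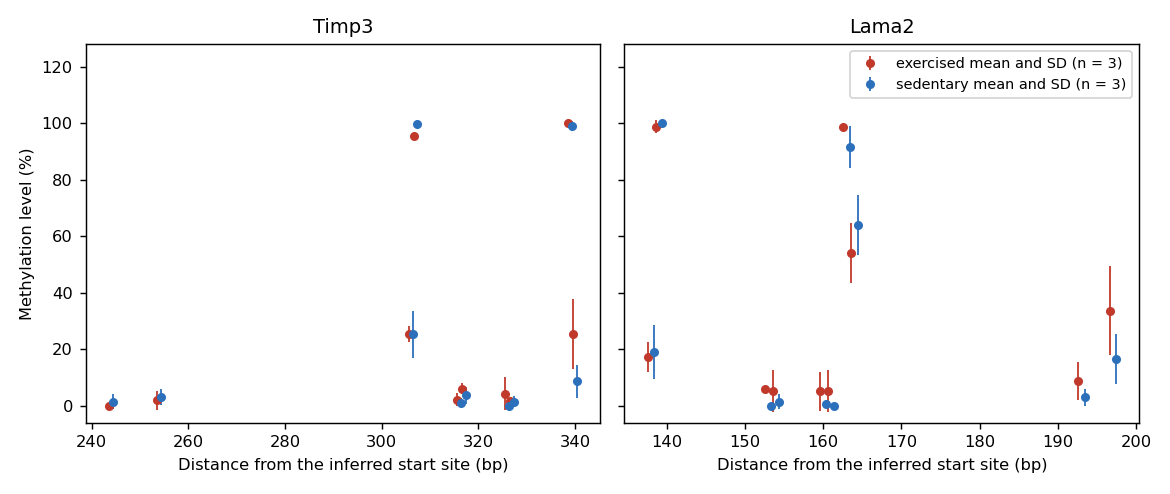
Methylation level (%, mean and SD of 3 samples per group) of each listed cytosine of Timp3 (left) and Lama2 (right) against its distance from the start site inferred from the region's frame, with exercised in red and sedentary in blue. In Timp3 the groups separate most at 340 bp, and in Lama2 several low positions near 150 to 165 bp are higher in exercised.

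Among the structural collagens no member passed the test. Col24a1, a fibrillar collagen (chr3:144953436-144956435, mm9, plus strand), was at 40.7%, 40.4% and 39.9% in exercised and 43.9%, 47.2% and 41.9% in sedentary samples. All exercised samples were lower, by 4.00 points on average (edgeR unadjusted p = 0.0962). Col6a2 was at 18.5%, 8.64% and 7.21% against 13.3%, 5.58% and 3.64%, so the groups overlapped. Its difference of 3.93 points (unadjusted p = 0.0643) was 0.409 without exercised sample 1. A single cytosine 13 bp before the start read 78.6% in exercised sample 1, 3.33% and 8.33% in the other exercised samples, and 0% in all sedentary samples, where 54 reads allow up to 5.56%. For the basement membrane, Col4a2 differed by 2.59 points (25.9% ± 2.24 against 23.3% ± 1.65; unadjusted p = 0.117) and Col18a1, the source of endostatin, by -0.48 points. The difference of Col4a2 was -1.92 points without its stand-alone positions. The remaining collagen named by its group, Col23a1, differed by 1.32 points (unadjusted p = 0.310).

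The laminin genes were 4 higher and 3 lower, with 0 at an unadjusted p under 0.05, beside 2.37% of all regions. Lama2 encodes the alpha chain of the main muscle laminin, whose loss causes congenital muscular dystrophy. Its region (chr10:27335749-27338748, mm9, minus strand) was at 37.8%, 32.2% and 34.0% in exercised and 32.6%, 31.6% and 31.0% in sedentary samples, with exercised sample 2 inside the sedentary range (difference 2.92 points; unadjusted p = 0.223). Without its 5 stand-alone positions the exercised mean was 6.67% ± 3.29 and the sedentary mean 1.01% ± 0.914, 5.66 points apart (SD, n = 3 each; edgeR unadjusted p = 0.0121). At 153 bp after the start the exercised samples read 5.65%, 7.04% and 4.76% and the sedentary samples 0% each, where 112 reads allow up to 2.68%. Lama5 (0.961 points), Lamc1 (0.456 points) and Lamb1 (-1.37 points) are laminin chains of other basement membranes and blood vessels as well. Lamc3 differed by -1.38 points (unadjusted p = 0.318).

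Without stand-alone positions 2 members had an unadjusted p under 0.05, Lama2 and Itga6, 2.38% of 84. Among all regions this was 440 of 9707 (4.53%), 340 of them higher (3.50%), and 0 passed after adjustment. On this measure 50 of the 84 members were higher, beside 57.1% of all regions. Itga6 encodes an integrin alpha chain that binds laminin. Its exercised mean was 3.04% ± 0.876 and its sedentary mean 1.57% ± 0.426 (SD, n = 3 each; unadjusted p = 0.0476), and differed by 1.51 points with all positions (unadjusted p = 0.242).

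Integrin regions held some of the widest differences in percentage points. Itga5 was at 52.1%, 42.3% and 38.1% in exercised and 37.1%, 33.7% and 42.3% in sedentary samples, so the groups overlapped (6.45 points; edgeR unadjusted p = 0.0984). The value was 2.50 points without exercised sample 1. Itga3, a laminin-binding alpha chain, was at 34.7%, 31.1% and 33.9% against 40.4%, 39.2% and 33.3% (-4.38 points; unadjusted p = 0.121). Itgb4 differed by 4.28 points, but exercised samples ranged from 33.1% to 54.7%, and the value was -1.40 without exercised sample 1. Without its stand-alone position Itgb4 differed by 6.31 points (unadjusted p = 0.438 in the separate edgeR fit). Itga7, the main laminin-binding alpha chain of adult muscle, had 3 positions and differed by -3.01 points (34.8% ± 5.88 against 37.8% ± 4.19). The value was -0.105 without exercised sample 2, -0.60 without sedentary sample 1 and -5.98 without exercised sample 1. Itgb1, its beta partner, differed by -0.089 points with 29 positions (26.6% ± 1.23 against 26.7% ± 1.61, SD, n = 3 each).

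The crosslinking enzymes went in both directions. Loxl1, needed for elastic fibre renewal, was at 27.4%, 29.1% and 30.4% in exercised and 32.5%, 30.6% and 34.8% in sedentary samples. All exercised samples were lower (-3.69 points; edgeR unadjusted p = 0.0764), and the p was 0.0483 without sedentary sample 2. Loxl3 was at 39.1%, 34.6% and 29.3% against 19.4%, 33.3% and 28.7%, the widest difference of a member (7.22 points; unadjusted p = 0.150), and 3.34 points without sedentary sample 1. Lox differed by 0.935 points over its 9 positions. Over only those with at least 20 reads in every sample it differed by 15.2 points (unadjusted p = 0.0279). Loxl2 differed by -1.52 points. The prolyl hydroxylase genes P4ha1 (-1.79 points) and P4ha2 (-1.41 points) and the lysyl hydroxylase Plod1 (-0.18 points) were all at an unadjusted p above 0.05. Without exercised sample 3 the differences were -0.36 points in P4ha1 and -0.27 in P4ha2. Over only its positions with at least 20 reads in every sample, P4ha1 differed by -5.54 points (unadjusted p = 0.0207). In the elastic microfibril group Fbn1, the gene of Marfan syndrome, differed by 2.01 points and Fbln5 by -2.96 points (unadjusted p = 0.189). The thrombospondins, secreted glycoproteins that bind matrix and cells, differed by 0.581 points in Thbs1 and -0.69 in Thbs3.

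Among proteases, 0 of 31 ADAM, ADAMTS and matrix metalloproteinase regions had an unadjusted p under 0.05, beside 2.37% of all regions. Adamts19 was at 15.5%, 17.8% and 12.7% against 11.6%, 13.6% and 12.7% (2.74 points, edgeR unadjusted p = 0.0778). Its value was 0.534 points without stand-alone positions (unadjusted p = 0.634), 1.49 without exercised sample 2 and 4.07 without exercised sample 3 (unadjusted p = 0.00658). At a coverage of at least 20 reads it was 5.38 points (unadjusted p = 0.0286), and with the replicate block the unadjusted p was 0.0445. Adamts5, an aggrecan- and versican-cutting enzyme, differed by 3.66 points (33.5% ± 1.67 against 29.8% ± 3.07, unadjusted p = 0.117). Adamts8 differed by -2.85 points (21.0% ± 1.32 against 23.9% ± 1.87, unadjusted p = 0.109). In the separate edgeR fit without stand-alone positions the differences were 4.94 points in Adamts5 (unadjusted p = 0.249) and -4.06 in Adamts8 (unadjusted p = 0.0620). Mmp2, gelatinase A, was at 26.9%, 25.3% and 20.8% against 21.8%, 20.8% and 21.0%, with exercised sample 3 at the level of the sedentary samples (3.10 points; unadjusted p = 0.114). Mmp9 differed by -2.66 points and was 1.43 without exercised sample 1. Adam12 and Adam19, both expressed during muscle regeneration, differed by 0.654 and 0.576 points. Adam11 had the smallest p of the ADAM genes (0.586) with a difference of -0.52 points.

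**Figure D5:**
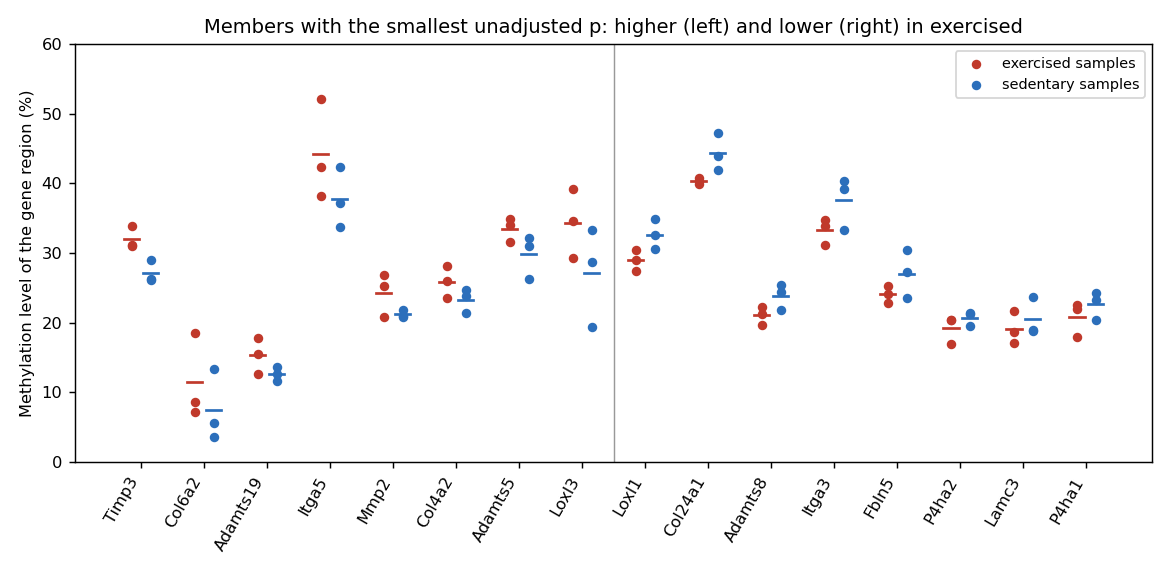
Methylation level (%) per sample of the 8 members with the smallest unadjusted p that were higher in exercised (left of the line) and the 8 that were lower (right), with each point 1 sample and each bar the mean of 3. The groups are apart in Timp3, Loxl1 and Col24a1 and overlap in the other 13.

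At single cytosines the members followed the whole table. Of 2130 member positions tested with edgeR, 75 (3.52%) had an unadjusted p under 0.05, 42 higher and 33 lower, beside 3.32% of 253960 positions, and 0 passed after adjustment (smallest adjusted p 0.919). Neighbouring positions on the same reads are not independent. In P4ha2, at 228 bp after the start, exercised samples were at 28.3%, 5.13% and 4.76% and sedentary samples at 0% each, where 201 reads allow up to 1.49% (unadjusted p = 0.00129). In Adamts3, a CCGG cytosine 23 bp after the start was at 100% in the exercised samples and at 83.6%, 96.2% and 100% in the sedentary ones (unadjusted p = 0.00198). In Loxl4, a cytosine outside CCGG 185 bp before the start was at 2.99%, 3.68% and 2.96% against 0% in all sedentary samples, where 348 reads allow up to 0.862% (unadjusted p = 0.00396). The last of these differences is 3.21 points wide.

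In the authors' deposited table, 68 of 2130 member positions (3.19%) had a p under 0.05 beside 3.13% of all positions. Of these, 6 differed by 20 points or more in the authors' deposited table, which is 0.282% of member positions beside 0.211% of all positions. Over all positions 0.0878% were higher in exercised and 0.124% lower by that much in the authors' deposited table. Adamts19 was higher in exercised by 33.6 points, and 5 were lower: Col19a1 (-42.4 points), Itga5 (-30.8), P4ha2 (-28.1), Itga3 (-24.7) and Col26a1 (-24.7). These positions were picked by p and size of difference, so a separation of the groups follows from the choice. The position of P4ha2, 65 bp after the start, was at 19.6%, 15.96% and 8.89% in exercised and 48.0%, 45.7% and 34.9% in sedentary samples. In Adamts19 the position read 96.8%, 92.4% and 71.2% against 45.5%, 56.2% and 57.7%. In Col19a1 it read 46.4%, 39.6% and 20.5% against 72.2%, 65.7% and 95.8%. In Itga5 the cytosine on the opposite strand, 1 base away, differed by 24.3 points in the other direction. Of the 6 positions, 4 were stand-alone.

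Other matrix and adhesion genes outside the families above gave a like picture. Of 54 regions, 31 were higher and 23 lower, beside 61.0% higher over all regions. The median difference was 0.422 points against 0.390 over all regions. Beside 2.37% of all regions, 1 of the 54 had an unadjusted p under 0.05. This was Emilin2, an elastic fibre glycoprotein, at 45.5%, 32.4% and 32.9% in exercised and 27.8%, 29.5% and 29.2% in sedentary samples (8.08 points; edgeR unadjusted p = 0.0315, adjusted p = 0.9998). P3h2, a collagen prolyl 3-hydroxylase, differed by 1.87 points (unadjusted p = 0.0743). The lowest p among regions lower in exercised were those of Mfap2, a microfibril protein (-2.77 points; unadjusted p = 0.0735), and Colgalt1, a collagen galactosyltransferase (-4.11 points; unadjusted p = 0.158).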

How the data were processed

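Per the submitters' processing notes the tools were Trim Galore 0.2.5, cutadapt 1.0, Bismark 0.7.7 and Bowtie 0.12.9 with build mm9; no role or setting is stated in the labels. For each of the 6 samples the authors deposited the methylated fraction (0 to 1) and the coverage count of every position in 3000 bp regions keyed by RefSeq transcript, at least 10 reads in each sample. The authors also deposited a difference and a p-value per position. Fraction times coverage was whole within 0.00236 of a read, which gave methylated and unmethylated counts. Symbols came from RefSeq (GRCm38.p6, names and promoter sequences only) and were found for 10655 of 10755 transcripts.

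Counts were summed per region and tested with edgeR 4.0.16 (R 4.3.3; quasi-likelihood, a term per sample and a group term, no dispersion trend), adjusted by Benjamini-Hochberg over all regions or all positions. The code was tested on simulated data. A promoter was placed where at least 10 deposited positions fell on its CpGs in a search, or at least 6 at the region's frame, a minimum set after the data were seen. Named members were the 8 smallest p per direction at a mean coverage of at least 20, the 10 highest levels, the smallest p of each gene group and a list of well-known matrix genes. Itga6, Itgav, Col13a1, Loxl4, Adamts3, Col26a1, Col19a1, the single cytosines and the sequences shown were chosen after their values were seen. The members and lists were chosen with earlier results of these data known. Alternatives tried were leaving out samples in turn, a replicate block, coverage of at least 20, removal of the most covered or the stand-alone positions, limma 3.58.1, at least 5 positions, unweighted means and Fisher's exact test. Python 3.11.15 with pandas 2.3.3 and scipy 1.17.1 was used.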

Additional observations from a re-analysis of the deposited data

How the results depend on the processing

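No region passed an adjusted p of 0.05 in edgeR under any setting run on regions, limma included, while the count of members at an unadjusted p under 0.05 was unstable. It was 1 of 85 beside 2.37% of all regions, and 2 of 85 beside 2.04% with a replicate block. At a coverage of at least 20 reads it was 4 of 77 beside 2.21%, and without stand-alone positions 2 of 84 beside 4.53%. When 1 sample was left out it was 0 to 7. Of 85 members it was 0 without exercised sample 1 (1.69% of all regions), 2 without exercised sample 2 (2.12%) and 7 without exercised sample 3 (6.00%). It was 4 without sedentary sample 1 (2.75%), 2 without sedentary sample 2 (3.44%) and 1 without sedentary sample 3 (2.32%). Timp3 was not among those without sedentary sample 2 or 3, nor among the 4 at the higher coverage. Over all regions the count of 237 became 440 without stand-alone positions and 169 to 601 when 1 sample was left out, with 601 without exercised sample 3. The replicate block used numbers that do not pair the samples: the same-number correlations of deviations were 0.019, -0.22 and -0.11. Fisher's exact test on pooled reads, which ignores the spread between samples, called 106 of 2130 member positions at an adjusted p under 0.05. In the whole table it called 12354 of 253960 positions, a like share, and edgeR called 0 in both.

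The members' median difference ranged from -0.19 to 0.795 points when 1 sample was left out. The mean member level of 25.8% was 11.8% without stand-alone positions. Of 41 named members, 20 kept the sign of their difference under every alternative and 21 did not. Many of them were named for a small p, which favours a kept sign, and other regions were not counted. The count therefore says nothing about matrix genes as a class. Without stand-alone positions the difference was -1.92 points in Col4a2, -0.44 in Col6a2, 0.376 in Plod1 and 0.300 in Thbs3. In Col6a2 the cytosine 13 bp before the start counts as stand-alone only through exercised sample 1, so this setting takes the difference out by construction. At a coverage of at least 20 reads the difference was 1.12 in Lamc3, 0.523 in Loxl2, 0.971 in Plod1 and -0.85 in Thbs1. It grew from 0.935 to 15.2 in Lox (unadjusted p = 0.0279). This setting keeps only positions with at least 20 reads in every sample, so a region can rest on fewer positions. With 1 sample left out the difference ranged from -0.035 to 1.61 in Adam12, -0.155 to 0.953 in Adam19, -2.28 to 0.653 in Adamts1, -0.869 to 2.50 in Adamts16, -3.08 to 1.87 in Col18a1, -4.02 to 2.23 in Col9a3, -0.220 to 3.50 in Fbn1, -0.875 to 0.738 in Itgb1, -1.40 to 9.39 in Itgb4, -0.607 to 2.35 in Lama5, -0.297 to 1.11 in Lamc1, -2.66 to 0.229 in Lamc3, -2.57 to 3.15 in Lox, -4.92 to 1.43 in Mmp9, -0.648 to 0.236 in Plod1, -0.604 to 2.38 in Thbs1, -1.78 to 0.186 in Thbs3 and -1.52 to 0.083 in Timp2. Sedentary sample 3 had the lowest depth, with a median of 27 reads per position, which widens its single-position values most.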
